A study of Mus musculus with 12 samples.

Results

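The lysosomal cathepsins examined here were a group of 10 genes taken by symbol from a list. These were *Ctsa*, *Ctsb*, *Ctsc*, *Ctsd*, *Ctsh*, *Ctsk*, *Ctsl*, *Ctso*, *Ctss* and *Ctsz*. All 10 were present among the 10697 genes of the expression table. They were measured in primary mouse adult fibroblasts (MAFs) grown out of tissue pieces from wild-type (WT) C57BL6/j mice, with no sorting of cells stated. The cells received 100 µM thymol, a monoterpenoid phenol of thyme and oregano, or an equal volume of its solvent DMSO for 24 h, with 6 libraries per group. The labels do not say whether the libraries of a group came from separate cultures or animals, so p-values measure the spread between these libraries, which may be technical. In limma, part of the spread assigned to each gene was drawn from other genes of similar level. The table held between 5435985 and 9049796 reads per library, and the groups did not differ detectably in this total (exact two-sided permutation test, p = 0.396).

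Cathepsins are the main proteases of the lysosome, the acidic compartment in which endocytosed and autophagocytosed material is broken down. Most are cysteine proteases of the papain family, while cathepsin D is an aspartic protease and cathepsin A a serine carboxypeptidase. They are made as inactive precursors, tagged with mannose 6-phosphate for delivery to the lysosome, and activated there by cleavage at low pH. Many lysosomal genes carry a CACGTG-type element, which is bound by TFEB and its relatives. The comparison asked whether transcripts of these enzymes differed after thymol, in a study of compounds that activate autophagy.

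Transcripts of 3 cathepsins rose with thymol and 1 fell. *Ctsd*, *Ctss* and *Ctsb*, which were the most abundant members, rose by between 1.14-fold and 1.24-fold, and *Ctsc* fell to 0.788 of its DMSO level. For these 4 genes all 6 thymol values lay on one side of all 6 DMSO values. The other 6 members did not pass the test. Against these 4 of 10 members stand 2.22% of all genes past an adjusted p-value of 0.05 in limma, 0.654% higher and 1.57% lower. Among genes with a mean of at least 5 log2 CPM (log2 of the reads of a gene scaled to a common library total), a level that 9 of the 10 cathepsins reached, 3.5% passed. The 2 groups did not overlap for 1.68% of all genes. The members were chosen with earlier results of these data known, so these shares are a description and not a test. *Ctsd*, *Ctsb* and *Ctss* ranked 14, 30 and 80 in DMSO level among all genes. The genes above 5 log2 CPM are therefore not matched to them in level. The calls rested on a model in which the variance follows the expression level. Without that trend 0 of the 10 cathepsins passed in limma, at adjusted p-values from 0.0662 to 0.18 for the 4 genes, and 6 of the 10 had an unadjusted p-value under 0.05, as did 10.7% of all genes in that fit. With voom on recovered reads 4 passed.

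**Figure D1:**
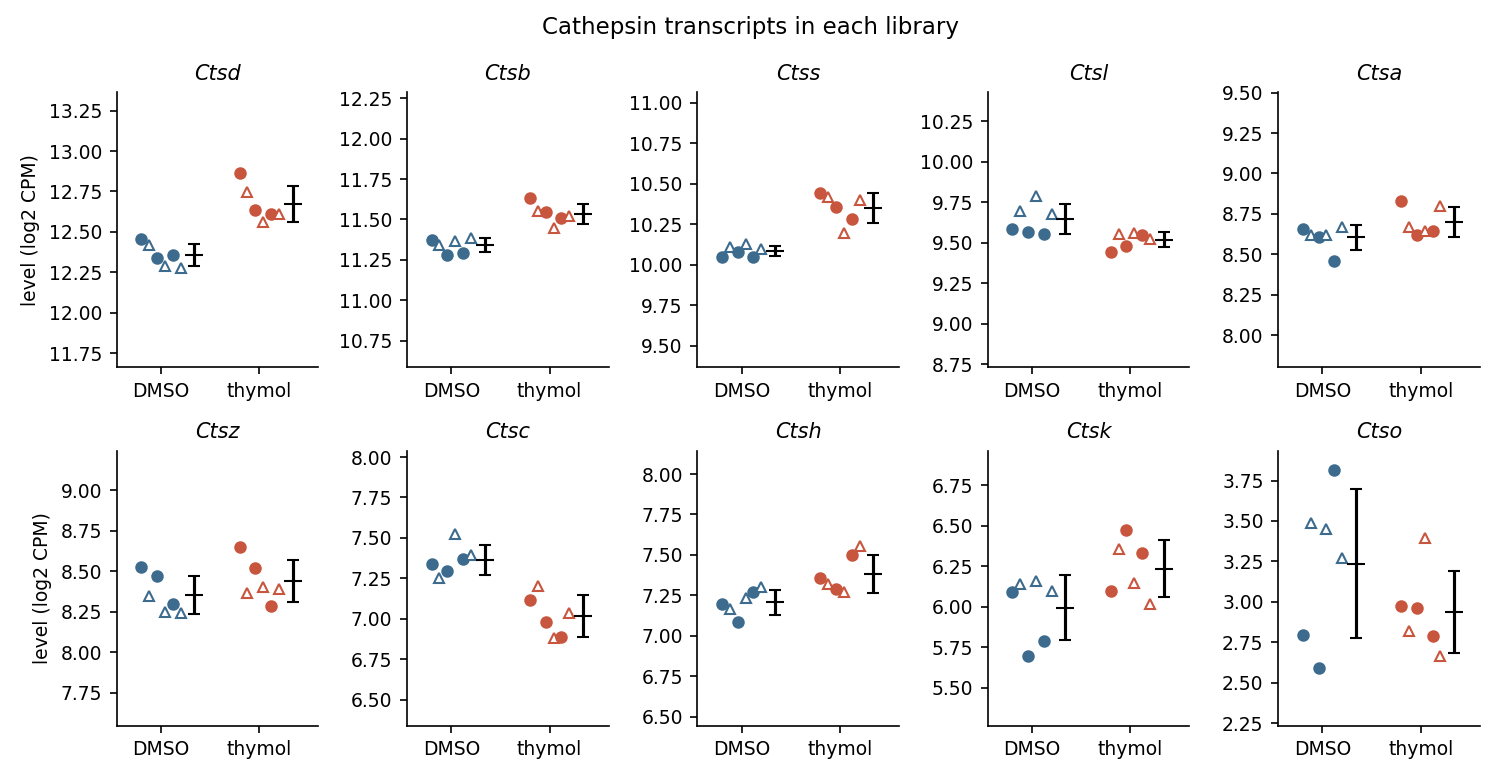
Level of each cathepsin in every library, in log2 CPM, with every panel spanning the same height. Filled circles are odd-numbered and open triangles even-numbered libraries, and the black mark is the mean with its SD (n = 6 per group). The thymol and DMSO points are fully apart for *Ctsd*, *Ctsb*, *Ctss* and *Ctsc*.

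The genes lie on 6 chromosomes (GENCODE vM21, build GRCm38). *Ctsd* lies at chr7:142375911-142388038 on the minus strand and *Ctsc* at chr7:88278085-88310888 on the plus strand. *Ctsb* lies at chr14:63122462-63145923, plus strand. *Ctss* (chr3:95526786-95556403) and *Ctsk* (chr3:95499256-95509362) are neighbours on the plus strand with 17423 bases between them, and *Ctso* lies on the same chromosome at chr3:81932601-81956725. *Ctsa* (chr2:164832873-164841032), *Ctsz* (chr2:174427493-174439039), *Ctsh* (chr9:90054152-90076089) and *Ctsl* (chr13:64359337-64370890) complete the group. The annotation shows overlaps with other genes for some members. *Ctsb* shares 774 bases with *Fdft1* on the opposite strand, which had a log2 fold change of -0.45 (limma adjusted p = 0.17). *Ctsa* shares 1515 bases with *Pltp* and 584 with *Neurl2*, also on the opposite strand. Their log2 fold changes were 0.37 (limma adjusted p = 0.21) and 0.58 (limma adjusted p = 0.28). *Ctsz* shares 10 bases with *Nelfcd* on the opposite strand (0.18, limma adjusted p = 0.46). *Ctsl* shares 1971 bases with *Gm47123* on the opposite strand and 395 with the pseudogene *Gm49230* on its own, neither in the table. *Ctsd* shares 6757 bases with the gene model *Gm49369* on its own strand, which was not in the table. *Ctss* shares 557 bases with the pseudogene *Hmgb1-ps5* on its own strand and *Ctsc* 4743 bases with *Gm26522* on the opposite strand, and neither was in the table. Where the shared bases lie in the transcripts was not examined. Whether the counting used strand is not given in the sources used here, so a contribution of these partners was not tested.

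The promoter table of RefSeq (GRCm38.p6) held 8 of the 10 cathepsins, with 2 start sites for *Ctsa*. *Ctsb* and *Ctsh* had no entry. The 250 bases before each start were searched for CACGTG, the palindromic core of the element described above, and for the longer TCACGTG, which contains it, on both strands. CACGTG was found before a RefSeq start site of 3 genes, *Ctsd*, *Ctsa* and *Ctsl*, and TCACGTG before one of *Ctsd* and of *Ctsa*. Of all 32851 promoters of this length 6.02% held CACGTG and 3.13% held TCACGTG, and for promoters of genes in the expression table these shares were 8.48% and 5.08%. The sites are shown because they are what sets the promoter of *Ctsd*, the member with the smallest p-value, beside those of *Ctsa* and *Ctsl*, which did not pass the test. Each is written 5′ to 3′ along the gene, with CACGTG in capitals.
Ctsd, distal site (chr7:142388055-142388077, minus strand): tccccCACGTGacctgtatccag
Ctsd, proximal site (chr7:142387908-142387937, minus strand): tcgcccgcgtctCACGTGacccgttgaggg
Ctsa, before the downstream start (chr2:164833749-164833772, plus strand): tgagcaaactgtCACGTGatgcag
Ctsl (chr13:64370739-64370768, minus strand): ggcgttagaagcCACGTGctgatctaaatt
Counted from the RefSeq start site, the capitals begin at -245 and -98 for *Ctsd*, at -12 for *Ctsa* and at -236 for *Ctsl*. By the GENCODE coordinates given above, only the distal site of *Ctsd* lies outside its gene. The other sites lie within the annotated gene, before a RefSeq start further downstream. The upstream start of *Ctsa* had no CACGTG before it. *Ctss* and *Ctsc*, which also changed, had no CACGTG in this window. A match of letters is a description and not evidence of binding.

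Levels of the 10 genes spanned most of the range of the table. Since QuantSeq gives about 1 read per transcript whatever the length, log2 CPM levels were compared between genes without a correction for length. Other differences between genes in how reads are counted, such as the overlaps given above, were not tested. In DMSO *Ctsd* averaged 12.36 log2 CPM and was the 14th most abundant of all genes. *Ctsb* followed at 11.34, *Ctss* at 10.09 and *Ctsl* at 9.64. *Ctsa* (8.61) and *Ctsz* (8.36) had overlapping values, as did *Ctsc* (7.36) and *Ctsh* (7.21). *Ctsk* (5.99) and *Ctso* (3.24) were the least abundant. With these exceptions the 6 DMSO values of each gene lay above those of the next gene in the order. With thymol the order was the same except that *Ctsh*, at 7.38, lay above *Ctsc*, at 7.02, with no overlap of their values.

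The cathepsins together held 1.08% ± 0.024 of the reads in DMSO libraries and 1.27% ± 0.065 in thymol libraries (SD, n = 6 each). The lowest thymol library, at 1.19%, lay above the highest DMSO library, at 1.11%. *Ctsd* alone supplied 48.4% ± 1.5 of the cathepsin reads in DMSO and 51.5% ± 1.2 with thymol, and *Ctsb* supplied 23.9% ± 0.69 and 23.4% ± 0.47. The share of *Ctsl* was 7.40% ± 0.51 in DMSO and 5.80% ± 0.47 with thymol. That of *Ctsc* was 1.52% ± 0.12 and 1.02% ± 0.057. Thus the pool was larger with thymol and contained relatively more *Ctsd* and less *Ctsl* and *Ctsc*. These sums over the members are descriptions and were not tested.

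**Figure D2:**
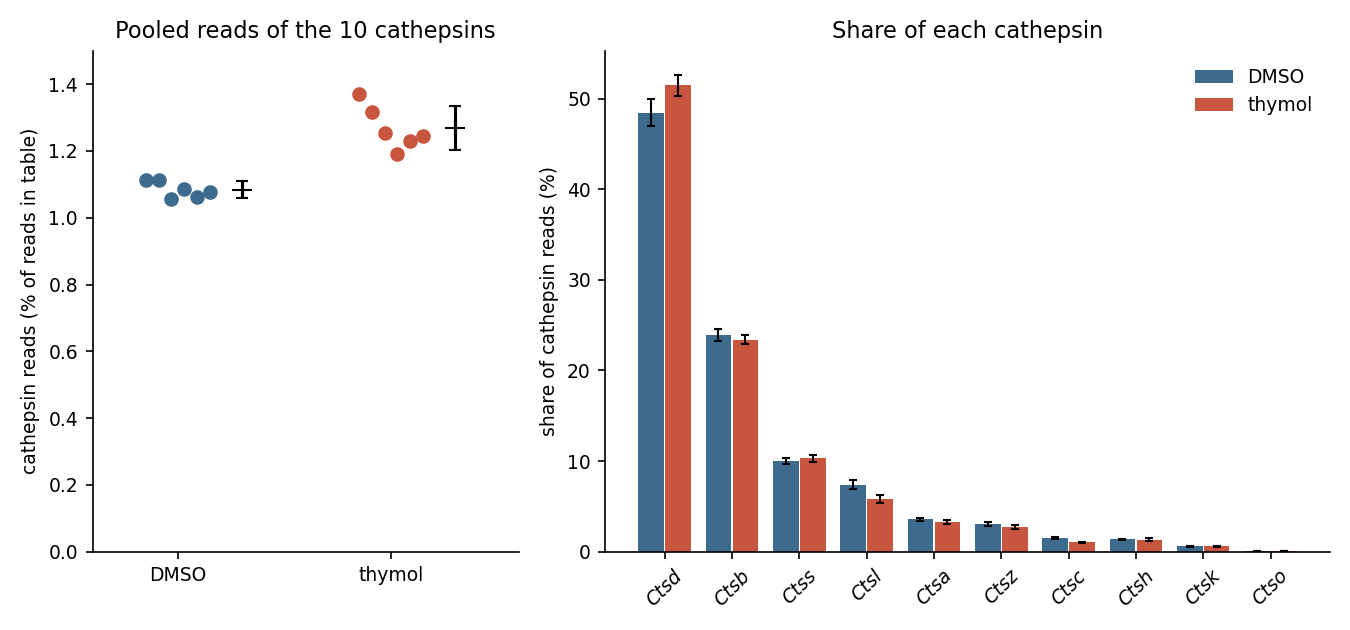
Left, reads of the 10 cathepsins as a percentage of all reads in the table, 1 point per library with mean and SD (n = 6 per group). Right, mean share of each gene in the cathepsin reads (%), with SD. *Ctsd* and *Ctsb* make up most of the reads in both groups, and every thymol library has a larger pool than any DMSO library.

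*Ctsd*, the aspartic endopeptidase that cleaves proteins internally at low pH, showed the largest rise. Its DMSO values had a lowest of 12.28, a median of 12.35 and a highest of 12.46 log2 CPM, and its thymol values a lowest of 12.56, a median of 12.62 and a highest of 12.86. All thymol libraries were therefore above all DMSO libraries, and the highest was thymol replicate 1. The log2 fold change was 0.31 ± 0.047 (SE, limma adjusted p = 6.9e-06), which is 1.24-fold with a 95% interval from 1.17 to 1.33. It rested on 32799 to 56816 reads per library. Without thymol replicate 1 the log2 fold change was 0.28 (limma adjusted p = 5.4e-06). Odd-numbered libraries alone gave 0.32 and even-numbered libraries alone 0.31.

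*Ctss*, a cysteine endopeptidase of macrophages and other antigen-presenting cells that trims the invariant chain of MHC class II, rose as well. The DMSO values were tight, with a lowest of 10.05, a median of 10.09 and a highest of 10.13 log2 CPM. The thymol values had a lowest of 10.20, a median of 10.38 and a highest of 10.44. The groups did not overlap, and the thymol libraries were more spread than the DMSO libraries (SD 0.094 against 0.032, n = 6 each). The log2 fold change was 0.26 ± 0.046 (SE, limma adjusted p = 0.00014), or 1.20-fold with a 95% interval from 1.13 to 1.28.

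*Ctsb*, a cysteine protease that acts both within chains and on their carboxyl ends, rose by a smaller step. The DMSO values ran from a lowest of 11.28 through a median of 11.35 to a highest of 11.39 log2 CPM, and the thymol values from 11.45 through 11.53 to 11.64. The lowest thymol library remained above the highest DMSO library. The log2 fold change was 0.19 ± 0.043 (SE, limma adjusted p = 0.0042), or 1.14-fold with a 95% interval from 1.08 to 1.21. Odd-numbered libraries alone gave 0.25 (limma adjusted p = 0.13) and even-numbered libraries alone 0.14 (limma adjusted p = 0.16), so that neither set of 3 against 3 libraries passed by itself.

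*Ctsc*, or dipeptidyl peptidase I, which removes dipeptides and thereby activates granule serine proteases of immune cells, was the only cathepsin that passed the test as lower. Its DMSO values had a lowest of 7.25, a median of 7.36 and a highest of 7.52 log2 CPM, and its thymol values a lowest of 6.88, a median of 7.01 and a highest of 7.20. Every thymol library lay below every DMSO library. The log2 fold change was -0.34 ± 0.068 (SE, limma adjusted p = 0.00094), with a 95% interval from -0.48 to -0.21. Odd-numbered libraries alone gave -0.34 (limma adjusted p = 0.09) and even-numbered libraries alone -0.35 (limma adjusted p = 0.032). None of 8 serine proteases listed as dependent on cathepsin C was in the table, among them neutrophil elastase (*Elane*), cathepsin G (*Ctsg*) and the granzymes *Gzma* and *Gzmb*.

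**Figure D3:**
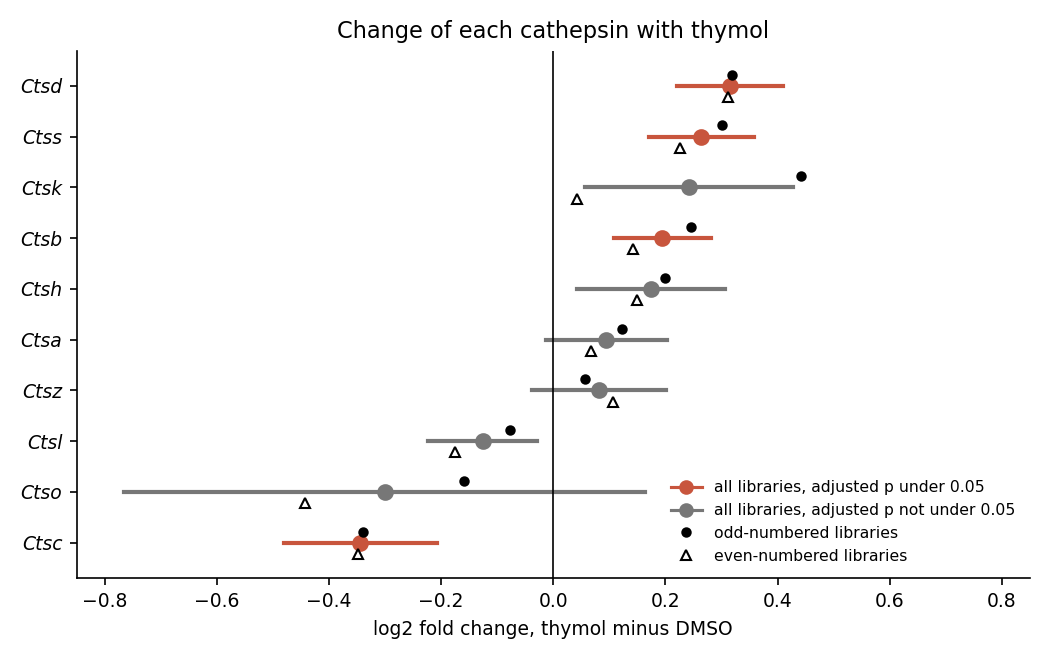
Log2 fold change of each cathepsin, thymol minus DMSO. Large points are the fit over 12 libraries with 95% intervals, small filled circles the odd-numbered and open triangles the even-numbered libraries alone. *Ctsd* and *Ctsc* have nearly the same value in both sets, while those of *Ctsk* lie at 0.44 and 0.04.

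*Ctsl*, the main cysteine endopeptidase of many cell types, did not pass the test, although 5 of its 6 thymol values were below the lowest DMSO value. Its DMSO values ran from 9.55 through a median of 9.63 to 9.79 log2 CPM and its thymol values from 9.45 through 9.53 to 9.56. The log2 fold change was -0.13 (95% interval -0.22 to -0.029, limma adjusted p = 0.22). Its interval lay wholly below that of *Ctss*, an enzyme of the same family, a difference between genes that was not tested.

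*Ctsk*, the collagen-degrading cathepsin best known from osteoclasts, had the widest interval of the group apart from *Ctso*. The DMSO values ran from a lowest of 5.70 through a median of 6.09 to a highest of 6.16 log2 CPM, and the thymol values from 6.01 through 6.24 to 6.47. The log2 fold change was 0.24 (95% interval 0.056 to 0.43, limma adjusted p = 0.21). The DMSO libraries had a mean of 5.86 in the odd-numbered and 6.13 in the even-numbered ones. Of the odd-numbered ones, replicates 3 (5.70) and 5 (5.79) were low, while replicate 1 (6.09) lay close to the even-numbered ones. Odd-numbered libraries alone gave a log2 fold change of 0.44 and even-numbered libraries alone one of 0.042. The difference between these was not tested, and the labels name no batch.

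The aminopeptidase gene *Ctsh* had a log2 fold change of 0.17 (95% interval 0.043 to 0.31, limma adjusted p = 0.20), with 4 of 6 thymol libraries above every DMSO library, at 7.27 to 7.55 log2 CPM against 7.08 to 7.30. The carboxypeptidase gene *Ctsz*, at 8.29 to 8.65 log2 CPM with thymol and 8.24 to 8.52 with DMSO, had a log2 fold change of 0.082 (limma adjusted p = 0.67). *Ctsa*, whose product also shields β-galactosidase and neuraminidase 1 in the lysosome, ranged from 8.62 to 8.83 log2 CPM with thymol and from 8.46 to 8.67 with DMSO. It had a log2 fold change of 0.095 (95% interval -0.013 to 0.20, limma adjusted p = 0.52). For *Ctsz* and *Ctsa* the groups overlapped broadly, and their intervals leave room for a rise of at most 1.15-fold. *Ctso* was measured with 33 to 86 reads per library. Its log2 fold change of -0.30 had a 95% interval from -0.77 to 0.16 (limma adjusted p = 0.69), so that a change of the size seen for *Ctsd* or *Ctsc* was not detectable for this gene at this depth.

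Over the 10 cathepsins the median log2 fold change was 0.13, against 0.0026 over all genes. Of the 10 values 7 were above 0, as were 5441 of the 10697 values over all genes.

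**Figure D4:**
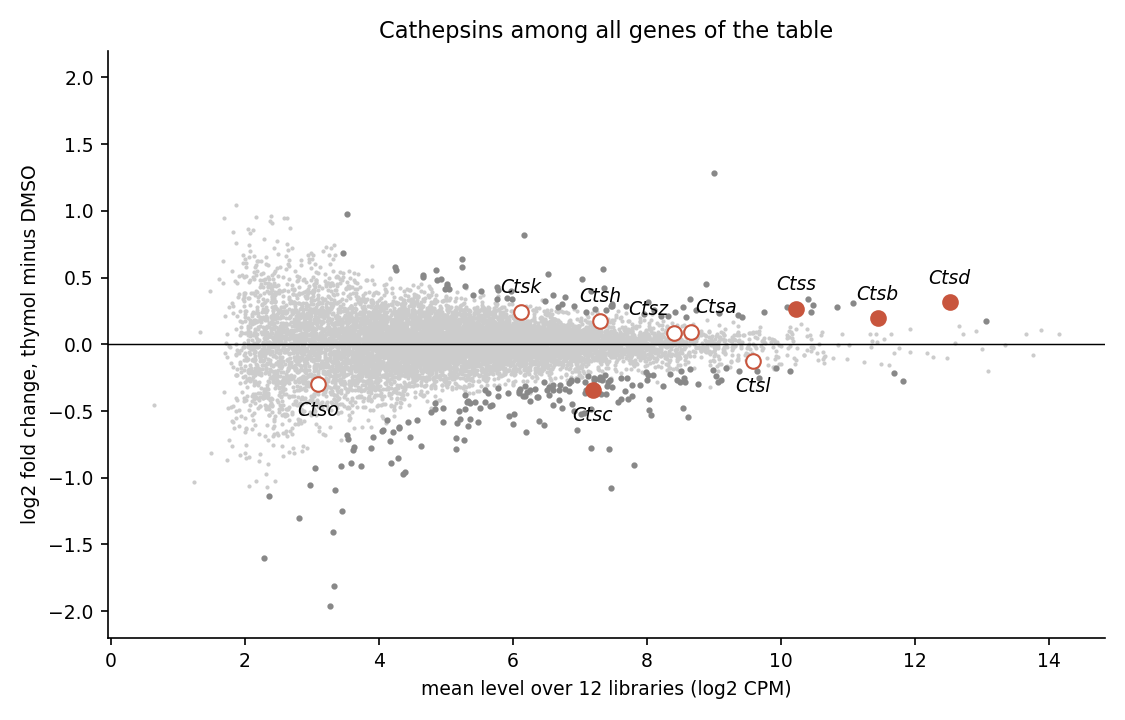
Mean level (log2 CPM) and log2 fold change of all 10697 genes. Grey points are genes that did not pass and dark points genes past an adjusted p-value of 0.05, filled red circles are cathepsins past it and open red circles the others. *Ctsd*, *Ctsb* and *Ctss* lie at the upper end of the expression range with small positive changes.

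Genes whose values over the 12 libraries most resembled those of the 4 changed cathepsins were sought among 5394 genes with a mean of at least 5 log2 CPM. Pearson's r is given as a description, since the treatment itself is part of the likeness. The closest gene to *Ctsd* was *Atp6v0d2*, a subunit of the proton pump that acidifies lysosomes (r = 0.96), followed by *Ctsb* (0.92) and *Sec63* (0.91). *Ctsb* was closest to *Mmp12*, the macrophage metalloelastase (0.97), *Cd84* (0.96) and *Ctss* (0.95). *Ctss* was closest to *Cd84*, a receptor of haematopoietic cells (0.95), *Ctsb* (0.95) and *Rgs2* (0.93). *Ctsc* had other companions, *Gda* (0.95), *Hilpda* (0.93) and *Ptx3* (0.93), all of which were lower with thymol, with log2 fold changes of -0.66, -0.54 and -0.61.

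Companion genes were described as 9 lists. Of all genes 11.8% had an unadjusted p-value under 0.05, which is the share to set beside each count of such p-values in a list. Of 13 further cathepsin genes only *Ctsf* was in the table, at a log2 fold change of -0.077 (limma adjusted p = 0.93). Of the 5 genes for activation and partners of cathepsins, 1 rose. This was *Psap*, the precursor of the saposins and a ligand that helps carry pro-cathepsin D, whose values had a highest of 10.34 in DMSO and a lowest of 10.38 log2 CPM with thymol (log2 fold change 0.34, limma adjusted p = 2.7e-05). *Lgmn*, encoding the asparagine-specific protease that processes several cathepsins, narrowly missed the threshold at 0.25 (limma adjusted p = 0.053). Without the mean-variance trend *Psap* did not pass either (limma adjusted p = 0.0991). *Grn* (0.062), *Glb1* (0.041) and *Neu1* (-0.061) did not pass.

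Among 7 measured other lysosomal peptidases, 0 rose and 1 fell. The one that fell was *Scpep1*, a serine carboxypeptidase related to cathepsin A, with thymol values from 8.82 to 9.12 and DMSO values from 9.07 to 9.42 log2 CPM and a log2 fold change of -0.27 (limma adjusted p = 0.0024), and 3 of the 7, among them *Lgmn* again, had an unadjusted p-value under 0.05 in limma. Without the mean-variance trend *Scpep1* did not pass (limma adjusted p = 0.197), nor did it in the odd-numbered libraries alone (-0.20). *Tpp1*, the tripeptidyl peptidase, had a log2 fold change of 0.022. Of 6 measured cathepsin inhibitors 1 fell and 0 rose. This was *Serpinb1a* (log2 fold change -0.91, limma adjusted p = 0.011), known as an inhibitor of neutrophil serine proteases including cathepsin G rather than of the papain-type enzymes. Its thymol values ran from 2.23 through a median of 3.41 to 3.95 log2 CPM and its DMSO values from 3.63 through 4.21 to 4.81, so that the groups overlapped. The call was lost without the mean-variance trend (limma adjusted p = 0.228) and when any of 3 libraries was left out, namely DMSO replicate 5 (-0.78), thymol replicate 6 (-0.82) and thymol replicate 2 (-0.70). The cystatins *Cst3* (0.066) and *Cstb* (0.0032), which do inhibit papain-type cathepsins, did not pass. An unadjusted p-value under 0.05 in limma was reached by 2 of the 6 inhibitors, *Serpinb1a* and *Ctla2a* (-0.18, limma adjusted p = 0.40).

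In 21 genes that sort enzymes to the lysosome, 0 passed in limma and 3 had an unadjusted p-value under 0.05, a share near that over all genes. *Cln8*, an exit receptor for lysosomal enzymes in the endoplasmic reticulum, had the smallest p-value (log2 fold change 0.29, limma adjusted p = 0.053). It passed under some other settings, for example with the odd or even library number as a term (limma adjusted p = 0.043). The mannose 6-phosphate receptors *M6pr* and *Igf2r* had log2 fold changes of -0.18 and -0.058. Of 14 proteins of the lysosomal membrane and lipid transfer, 0 passed in limma and 1 had an unadjusted p-value under 0.05, a share below that over all genes. This was *Cd63* (0.11, limma adjusted p = 0.22), which passed in 1 of 24 alternatives, quantile normalization (0.16, limma adjusted p = 0.0088). *Lamp1*, a major protein of the lysosomal membrane, had a log2 fold change of -0.00075. Against the median of 0.13 over the cathepsins, the median log2 fold change was 0.062 for activation and partners, 0.024 for other lysosomal peptidases, -0.038 for inhibitors, 0.020 for sorting and 0.033 for membrane and lipid transfer genes.

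The 4 MiT/TFE transcription factors gave 0 calls in limma and 1 unadjusted p-value under 0.05. *Mitf* had a log2 fold change of 0.28 (limma adjusted p = 0.22), *Tfeb* of 0.25, *Tfe3* of 0.019 and *Tfec* of -0.20, and the median was 0.13. Levels of a factor's transcript say nothing of its location in the cell. Of 8 genes of MHC class II, the pathway served by cathepsin S, 3 were in the table and *Cd74*, the invariant chain, was not. Of these 3, 0 passed in limma and 1 had an unadjusted p-value under 0.05. This was *H2-Ab1*, at a log2 fold change of -1.07 on few reads (limma adjusted p = 0.069), which passed without thymol replicate 1 (-1.20) and without DMSO replicate 3 (-1.23).

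**Figure D5:**
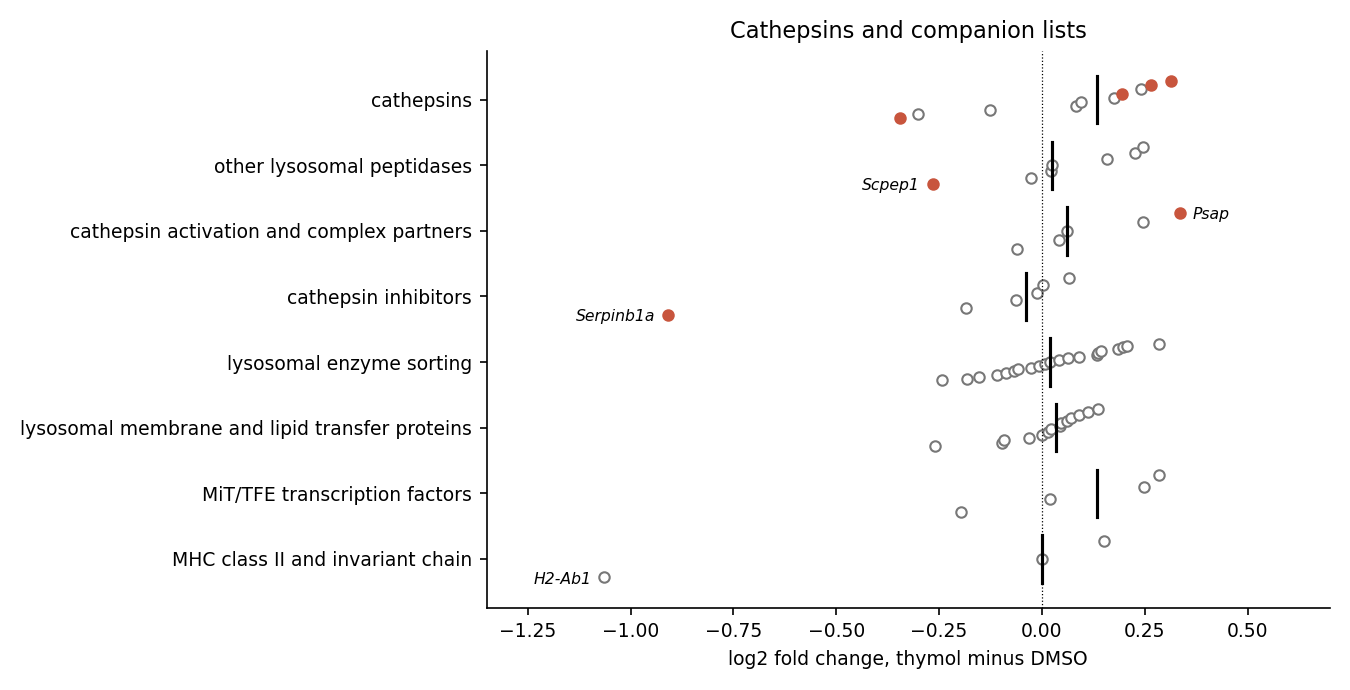
Log2 fold change, thymol minus DMSO, of the cathepsins and of the measured genes of 7 companion lists. Filled red points passed an adjusted p-value of 0.05 and open grey points did not, and black bars are list medians. *Psap* lies above and *Scpep1* and *Serpinb1a* below the other members of their lists.

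Several cathepsins are typical of macrophages, so markers of the cell types that a primary culture can hold were summed beside them. Fibroblast markers were present (14 of 16), but so were macrophage markers (21 of 22), including *Adgre1*, *Csf1r* and *Cd68*. The macrophage markers summed to between 19740 and 23570 CPM per library with thymol and between 19700 and 21730 with DMSO, and 2 of the 21, *Cd14* and *Itgam*, fell while 0 rose. *Lyz2* alone made up between 60.95% and 64.88% of this sum. The other 20 summed to between 7345 and 8277 CPM with thymol and between 7614 and 8226 with DMSO, and the median log2 fold change of the 21 was -0.013. Over all genes 1.57% were called lower and 0.654% higher. An unadjusted p-value under 0.05 in limma was reached by 7 of the 21, against 11.8% of all genes. Besides *Cd14* and *Itgam* these were *Adgre1* (-0.14), *Csf1r* (-0.15), *Mrc1* (-0.20) and *Msr1* (-0.25), which were lower, and *Cd68* (0.18), which was higher. The fibroblast markers summed to between 9361 and 10180 CPM with thymol and between 10230 and 11360 with DMSO, and 2 fell, *Col1a1* and *Col3a1*. The most abundant was *Col1a1*, at a mean of 11.95 log2 CPM in DMSO and 11.68 with thymol, and the sum without it was not taken. The median log2 fold change of the 14 was -0.093, with 5 of them above 0. Of these 14 markers 9 had an unadjusted p-value under 0.05 in limma, with *Pdgfra*, *Fbln1* and *Loxl1* higher and the others lower. The osteoclast list (6 of 10 measured) summed to between 170 and 223 CPM with thymol and between 130 and 157 with DMSO, with *Atp6v0d2* as the gene that rose. Its other 5 genes summed to between 89.3 and 104 CPM with thymol and between 78.4 and 99.3 with DMSO. Of these, *Mmp9* had a log2 fold change of -0.72 (limma adjusted p = 0.089), *Tnfrsf11a* of 0.39 (limma adjusted p = 0.091) and *Acp5* of 0.28 (limma adjusted p = 0.83), while *Calcr*, *Ocstamp*, *Dcstamp* and *Oscar* were not in the table. Of the dendritic cell markers only *Itgax* was in the table, and it rose by a log2 fold change of 0.45 (limma adjusted p = 0.022). Neutrophil (1 of 8), endothelial (2 of 6) and keratinocyte (1 of 7) markers were nearly all missing, and 0 of the listed mast cell and T cell markers were in the table. In such bulk libraries a different share of cells and a different amount of RNA per cell cannot be told apart, and the part of these markers in the cathepsin changes was not tested.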

How the data were processed

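Total RNA of MAFs was profiled in 12 libraries by QuantSeq 3′ mRNA sequencing. The library names run through the thymol group and then the DMSO group, and within each group through the odd before the even numbers. What this order stands for is not stated, and it cannot be told apart from the treatment. Per the labels and the study's methods, the authors aligned the reads to GRCm38 with STAR 2.5.3, counted them with HTSeq-count 0.6.1, kept annotated genes that reached 30 reads in 6 or more samples, and scaled libraries by TMM. The deposited values are log2 CPM with a prior count. The values of each library rise in equal steps, from which whole reads were recovered (100% of values under 200 reads within 0.02 of a whole number), and the recovered reads met the stated minimum for 98.0% of genes. The prior, 1.96 reads in an average library, pulls fold changes of weakly expressed genes towards 0.

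The log2 values were tested with limma 3.58.1 in R 4.3.3 (lmFit and eBayes with a mean-variance trend, 2 groups, no covariate, two-sided), with Benjamini-Hochberg adjustment over all 10697 genes and a threshold of 0.05. No count model was fitted, and voom on the recovered reads served as an alternative. Levels are means ± SD, changes are thymol minus DMSO with SE or a 95% interval. How reliably the procedure calls changes as small as those of the cathepsins was not tested. Sums in CPM were taken after removing the prior. Reads are PCR products, so read numbers speak of counting error only.

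The members, companion lists, markers and alternatives were chosen with earlier results of these data known. The named companions are up to 3 genes per list with an adjusted p-value under 0.05, or else the one with the smallest p-value. Further genes were named after their values were seen. The odd and even library numbers were separated because the DMSO libraries were known to differ by them. Alternatives covered the variance model, pseudocounts, a filter, scaling, the library number and leaving out each library.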

Additional observations from a re-analysis of the deposited data

Results flagged for a closer look

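For the 10 cathepsins and the read totals, the distance of the outermost library from its neighbour was divided by the range of its group of 6 and compared with Dixon's 95% critical value. Of 22 groups 2 passed it, and chance flags about 5% of groups. *Ctsa* in DMSO replicate 5 stood at 8.46 log2 CPM, below the next DMSO library at 8.61. Without this library the log2 fold change of *Ctsa* was 0.065 (limma adjusted p = 0.75). The read total of thymol replicate 5 was 9049796, above the next thymol library at 6585162. Without it the 4 cathepsin calls were unchanged, with log2 fold changes of 0.33 for *Ctsd*, 0.28 for *Ctss*, 0.20 for *Ctsb* and -0.32 for *Ctsc*.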

How the results depend on the processing

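The 4 cathepsin calls were 4 in 21 of 24 alternatives. Leaving out 1 library at a time gave 4 in each fit, with 172 to 270 genes called in all against 238. The odd-numbered libraries alone gave 2 cathepsins and 70 genes, and the even-numbered ones 3 and 167, each from 3 against 3 libraries. Without the mean-variance trend 0 cathepsins and 57 genes passed, at the same fold changes (limma adjusted p = 0.0662 for *Ctsd* and *Ctsc*, 0.0782 for *Ctss* and 0.18 for *Ctsb*). No cathepsin changed direction in any alternative, and the further cathepsin *Ctsf* did so in the odd-numbered libraries alone (0.10). The library number as a block or term, the variance settings within limma and the filter leave the fold changes as they are. These fits could not show a change of direction, and fits without 1 library share most of their libraries with the main fit. The filter at a mean of 5 log2 CPM left no value for *Ctso*, *Ctsf*, *Serpinb1a* or *H2-Ab1*.

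The libraries of both groups carry the numbers 1 to 6, but same-numbered libraries deviated together by r = -0.051 to 0.27 over genes, above 0.1 in 2 of 6 pairs, and 2 of 6 thymol and 1 of 6 DMSO libraries were most like their own number, so the numbers were not taken as pairs. With the number as a block 332 genes passed and 4 cathepsins. Depth limits *Ctso* most.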
